A study of Mus musculus with 8 samples.

Results

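Osteocalcin, matrix Gla protein and their relatives are secreted proteins in which vitamin K-dependent gamma-carboxylation turns glutamate residues into calcium-binding Gla residues. The 9 genes described here encode such proteins or enzymes that serve their carboxylation. They are the 3 osteocalcin genes Bglap, Bglap2 and Bglap3, the Gla protein genes Mgp, Ucma, Gas6 and Pros1, and the enzyme genes Ggcx and Vkorc1. They were taken by gene symbol from a table of 49315 gene IDs, each matched 1 ID, and all 9 were among the 17743 genes that passed the count filter and were tested.

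The libraries came from calvaria, the bones that roof the skull, of female C57BL6 mice aged 2 to 3 days, 4 of them Girk3-/- (KO) and 4 wild type (WT). Girk3, a subunit of G protein-gated inwardly rectifying potassium channels, is encoded by Kcnj9, and per the study's title its deletion was global rather than limited to a cell lineage. The study concerned bone mass in female mice lacking Girk3, and the comparison asked which transcripts differed in newborn bone. The labels name separate samples but do not say whether a sample was 1 animal or a pool, so p-values measure the spread between these samples.

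In background terms, Ggcx carboxylates the glutamates of Gla proteins in the endoplasmic reticulum while oxidizing reduced vitamin K, and Vkorc1, the target of warfarin, reduces the vitamin again. Osteocalcin is secreted by osteoblasts, binds hydroxyapatite through its Gla residues and is widely used as a marker of mature osteoblasts. Matrix Gla protein is an inhibitor of calcification made by chondrocytes and vascular smooth muscle cells, Ucma is a cartilage protein, and Gas6 and protein S, the product of Pros1, are ligands of the TAM receptor tyrosine kinases.

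The 3 osteocalcin genes lie within 15849 bases of chromosome 3, all on the minus strand. Their coding sequences are shown because reads from them are hard to assign to a single copy. Each sequence is from GENCODE mouse release 21 transcripts on GRCm38, 288 bases from the start to the stop codon, and capitals mark bases that differ from Bglap. The coding exons span chr3:88383635-88384415 for Bglap, chr3:88377870-88378650 for Bglap2 and chr3:88368756-88369536 for Bglap3.
Bglap: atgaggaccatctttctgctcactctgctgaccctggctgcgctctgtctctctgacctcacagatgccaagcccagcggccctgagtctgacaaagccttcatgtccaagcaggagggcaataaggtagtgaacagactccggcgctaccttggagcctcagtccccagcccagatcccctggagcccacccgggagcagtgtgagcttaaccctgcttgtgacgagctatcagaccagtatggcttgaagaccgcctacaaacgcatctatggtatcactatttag
Bglap2: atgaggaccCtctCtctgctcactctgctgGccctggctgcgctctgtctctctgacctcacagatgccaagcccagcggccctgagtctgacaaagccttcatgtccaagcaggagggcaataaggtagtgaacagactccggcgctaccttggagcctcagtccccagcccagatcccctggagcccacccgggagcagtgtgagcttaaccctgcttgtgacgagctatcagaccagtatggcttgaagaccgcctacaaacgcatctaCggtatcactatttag
Bglap3: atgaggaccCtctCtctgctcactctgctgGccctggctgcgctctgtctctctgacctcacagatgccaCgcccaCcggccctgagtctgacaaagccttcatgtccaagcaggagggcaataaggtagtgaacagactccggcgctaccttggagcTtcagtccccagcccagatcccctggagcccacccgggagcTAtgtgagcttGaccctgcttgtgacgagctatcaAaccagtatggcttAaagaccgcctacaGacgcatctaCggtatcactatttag
Bglap2 differed from Bglap at 4 bases, A10C, T14C, A31G and T273C, counted from 1 at the A of the start codon with the Bglap base first, and was 98.6% identical. Bglap3 differed from Bglap at 13 bases (95.5% identity) and from Bglap2 at 9 (96.9%). All 4 of the bases that set Bglap2 apart were shared by Bglap3. Of the 75-base windows along the Bglap transcript, 66.1% occurred letter for letter in Bglap2 or Bglap3, and of those along the Bglap2 transcript 73.3% occurred in Bglap or Bglap3. At 150 bases the shares were 31.6% and 28.6%. The sources used here give neither the read length nor the treatment of reads that map to several places. The division of counts among these genes is therefore uncertain, and Bglap and Bglap2 were also analysed as a sum.

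The 250 bases before the RefSeq start of Bglap (chr3:88384467-88384716, minus strand, GRCm38.p6) are shown since they hold the elements through which osteoblast factors are known to act on osteocalcin. Capitals mark, in order, ACCACA, which is the Runx core TGTGGT on the other strand, TTACATCA, the OSE1 element known to bind Atf4, and the TATA box TATAAA.
Bglap upstream: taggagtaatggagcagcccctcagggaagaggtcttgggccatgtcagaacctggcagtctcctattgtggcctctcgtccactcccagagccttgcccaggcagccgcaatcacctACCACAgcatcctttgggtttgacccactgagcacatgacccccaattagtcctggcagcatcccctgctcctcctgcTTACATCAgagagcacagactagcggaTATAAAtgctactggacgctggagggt
The matches lay 132, 54 and 27 bases before the start. The 250 bases before the start of each of 32851 RefSeq promoters were searched on both strands, and the 50 bases after it were not. TGTGGT was found in 14% of promoters, TTACATCA in 0.965% and TATAAA in 12.4%. The E-box pattern CANNTG, found in 66.2%, occurred once in the Bglap bases shown, 100 bases before the start. Of the 9 genes, 7 had a promoter in the table and Bglap2 and Mgp had none. Ucma held a Runx core 62 bases before its start. In the 250 bases searched, the 3 Bglap3 promoters held none of the words marked in capitals. A match describes letters and not binding.

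The libraries held 35.4 M to 54.3 M counts. Levels are given in CPM, counts scaled to the library total times its TMM factor, and intervals on counts cover counting error only. Kcnj9 held 2, 5, 7 and 9 counts in KO libraries against 0, 0, 1 and 4 in WT libraries, so its level does not check the labels. The mean log2 CPM of 10 skeletal muscle genes was 2.20 in KO replicate 2, 3.67 in KO replicate 3 and 0.27 in WT replicate 3, against 5.68 to 7.51 in the other 5 libraries. With edgeR's quasi-likelihood test, 234 of all tested genes (1.32%) were called at the adjusted p threshold of 0.05.

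Osteocalcin and matrix Gla protein transcripts were lower in KO calvaria, at 0.738 and 0.759 of the WT mean, while the carboxylation enzymes and the TAM ligands did not pass the test. Of the 9 genes, 2 fell and none rose. The 2 were Bglap and Mgp, where 0.874% of all tested genes were called lower and 0.445% higher. The median log2 change over the 9 was -0.20, against -0.00029 over all tested genes. A log2 change below 0 was found in 7 of the 9 and in 8886 of the 17743 tested genes. An unadjusted p under 0.05 was reached by 5 of the 9 and by 17.4% of all tested genes. In 4 of the 9 (Bglap, Bglap2, Mgp and Pros1) every KO library lay below every WT library, which was so for 5.96% of all tested genes. Groups that did not overlap in either direction made up 10.6%, with KO above WT in 4.63%. By limma-voom, which called 0.941% of genes, Mgp was called and Bglap was not, and with the replicate number as a block, which called 0.71%, none of the 9 was. Bglap and Bglap2 may share reads, so the counts over the 9 genes include 2 genes that are not independent. The 9 genes were also chosen with earlier results of these data known. Their counts beside the shares of all tested genes are therefore a description and not a test.

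**Figure D1:**
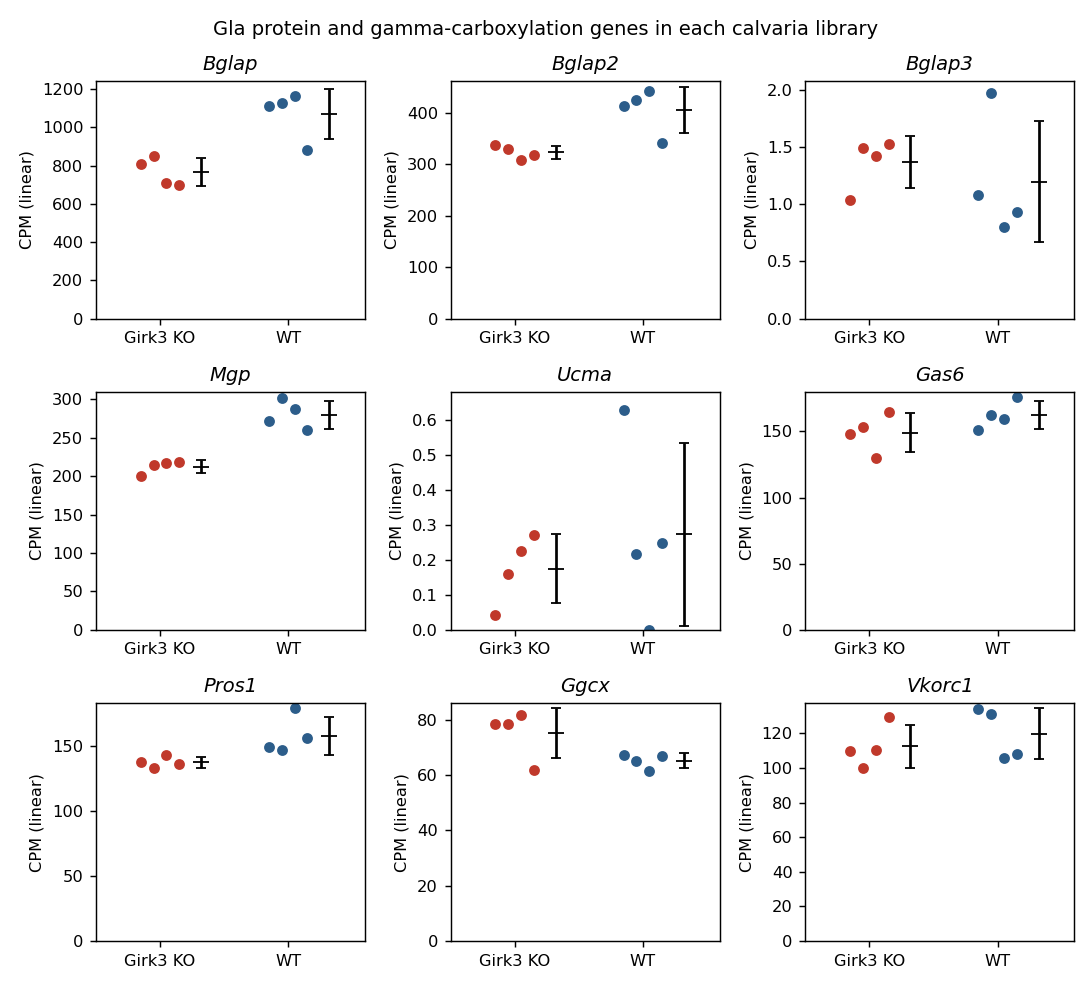
CPM (linear axes from 0) of the 9 genes in each library, Girk3 KO left of WT. Coloured points are libraries in replicate order and black bars the mean with SD (n = 4 each). Bglap, Bglap2, Mgp and Pros1 lie lower in every KO library than in any WT library, and the other genes overlap.

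Bglap (ENSMUSG00000074483, chr3:88383501-88384464, minus strand, GRCm38) encodes osteocalcin. It was at 808, 850, 709 and 701 CPM in KO replicates 1 to 4, against 1112, 1128, 1166 and 880 CPM in WT replicates 1 to 4. All KO libraries lay below all WT libraries, and the gap was narrow only between KO replicate 2 and WT replicate 4, the lowest of the WT group. The means were 767 ± 73.7 CPM in KO and 1072 ± 130 CPM in WT (SD, n = 4 each). Bglap fell by 0.48 ± 0.101 on the log2 scale (SE; 95% interval -0.70 to -0.26, adjusted p = 0.0383 by edgeR), and its KO mean was 0.716 of the WT mean. Leaving out replicate 1, 2 or 3 of KO or of WT ended the call, with log2 changes from -0.57 to -0.43 and adjusted p from 0.0187 to 0.127 over the 8 left-out libraries. It was also lost when TMM factors were dropped for library totals (adjusted p = 0.0639) and by limma-voom (adjusted p = 0.061).

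Bglap2 (ENSMUSG00000074486, chr3:88377736-88378699, minus strand), the second osteocalcin gene, was at 338, 329, 307 and 318 CPM in KO replicates 1 to 4, against 413, 426, 442 and 341 CPM in WT replicates 1 to 4. The groups did not overlap, but KO replicate 1 and WT replicate 4 nearly met. Means were 323 ± 13.2 CPM in KO and 406 ± 44.8 CPM in WT (SD, n = 4 each). The log2 change was -0.33 ± 0.0855 (SE; 95% interval -0.51 to -0.14) and did not pass, with an adjusted p of 0.0862 by edgeR. It did pass without WT replicate 4 (log2 change -0.40, adjusted p = 0.0356) and by DESeq2 (adjusted p = 0.00892), which called 6.08% of the genes it gave an adjusted p.

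As a sum, which does not depend on how reads were divided between the copies, although reads left uncounted for matching both would be missing, osteocalcin counts stood at 1146, 1179, 1016 and 1019 CPM in KO replicates 1 to 4, against 1526, 1554, 1609 and 1221 CPM in WT replicates 1 to 4. WT replicate 4 was again closest to the KO libraries, and no KO library reached it. The means were 1090 ± 84.7 CPM in KO and 1477 ± 175 CPM in WT (SD, n = 4 each), a fold of 0.738. These counts made up 0.104% to 0.122% of a KO library and 0.119% to 0.160% of a WT library. As a share of unscaled counts the groups therefore overlapped. The sum fell by 0.44 ± 0.0962 on the log2 scale (SE; 95% interval -0.65 to -0.23), just inside the threshold at an adjusted p of 0.0488 by edgeR, where 1.32% of the genes of that table were called. Leaving out any 1 library other than WT replicate 4 ended the call, with adjusted p from 0.0197 to 0.15 and log2 changes from -0.52 to -0.39. The call was also lost with RLE size factors (adjusted p = 0.0528), upper quartile scaling (0.0604), library totals (0.0783) and limma-voom (0.0654). In bulk tissue, fewer cells of a type and less RNA per cell cannot be told apart.

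Bglap3 (ENSMUSG00000074489, chr3:88368616-88372743, minus strand), the third copy, known in mouse for expression outside bone, was near the low end of detection. It held 48, 84, 63 and 56 counts in KO replicates 1 to 4, against 48, 82, 36 and 45 counts in WT replicates 1 to 4. The groups overlapped, and WT replicate 2 stood well above the rest of its group. Its level was 1.37 ± 0.224 CPM in KO and 1.20 ± 0.528 CPM in WT (SD, n = 4 each), with a log2 change of 0.20 ± 0.286 (SE, adjusted p = 0.769 by edgeR). Whether reads of the other copies enter these counts was not tested.

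The division of counts between Bglap and Bglap2 was also compared, although how reads that match both copies were counted is not known. Bglap made up 70.5%, 72.1%, 69.7% and 68.8% of the summed counts in KO replicates 1 to 4, against 72.9%, 72.6%, 72.5% and 72.1% in WT replicates 1 to 4. KO replicate 2 and WT replicate 4 were nearly equal, and the other 3 KO libraries were lower than all the rest. The mean share was 70.3 ± 1.38% in KO and 72.5 ± 0.341% in WT (SD, n = 4 each), a difference of -2.23 percentage points (two-sided exact permutation p = 0.0286, the smallest that 4 against 4 allows). That p needs every KO library below every WT library, which rested on 72.07% in KO replicate 2 against 72.08% in WT replicate 4. Exact (Clopper-Pearson) 95% binomial intervals ran from 71.7% to 72.4% in both of these libraries, so counting error alone could reverse their order. Without any 1 WT library the exact p was 0.0571.

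**Figure D2:**
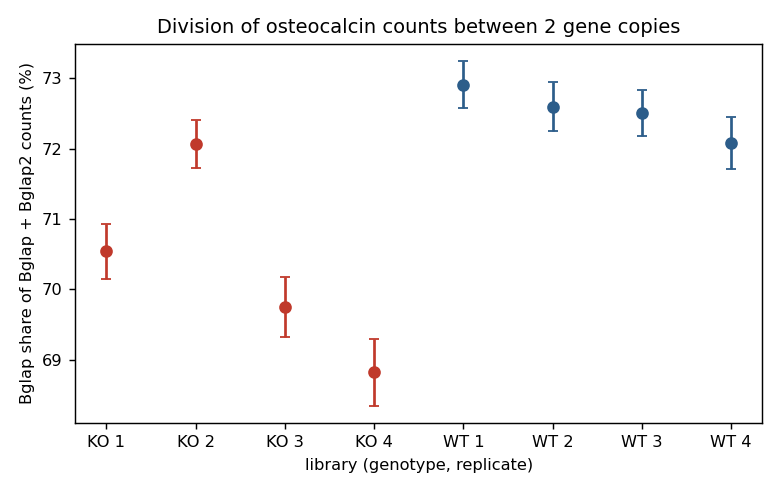
Share of Bglap in the summed counts of Bglap and Bglap2 (percent, axis not from 0) in each library, with exact 95% binomial intervals that cover counting error only. KO replicates 1, 3 and 4 lie at 68.8% to 70.5%, and KO replicate 2 lies at 72.1% with WT replicate 4.

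None of 8 osteoblast marker genes, a list without osteocalcin, passed the test (median log2 change -0.06, 2 at an unadjusted p under 0.05). Their log2 changes were below 0 in 5 genes and above 0 in 3. Smpd3, a sphingomyelinase needed for bone mineralization, had a log2 change of 0.25 ± 0.089 and lay higher in every KO library, and Ibsp, bone sialoprotein, one of -0.25 ± 0.102 (SE, adjusted p = 0.179 and 0.244 by edgeR). Phospho1, a phosphatase of matrix vesicles, was at 31.7 ± 15.9 CPM in KO and 22.4 ± 1.25 CPM in WT (SD, n = 4 each). Its higher KO mean came from KO replicate 4 at 54.9 CPM, with the other KO libraries at 18.9 to 26.8 CPM. The collagen gene Col1a2 was at 69272 ± 6374 CPM in KO and 74751 ± 2331 CPM in WT (SD, n = 4 each). The mean log2 CPM of the 8 genes was 11.25, 10.93, 11.10 and 11.16 in KO replicates 1 to 4, against 11.18, 11.10, 11.01 and 11.11 in WT replicates 1 to 4. The groups overlapped, with means of 11.11 in KO and 11.10 in WT (two-sided exact permutation p = 1).

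Set against these genes, log2 of the osteocalcin sum minus the marker mean was -1.08, -0.73, -1.11 and -1.17 in KO replicates 1 to 4, against -0.60, -0.50, -0.36 and -0.86 in WT replicates 1 to 4. Here the groups overlapped, since KO replicate 2 stood above WT replicate 4. The difference of the means was -0.44 (two-sided exact permutation p = 0.0571; the smallest possible is 0.0286) and did not pass. With Col1a1 and Col1a2 alone in place of the 8 genes it was -0.31 (exact p = 0.0857). None of 6 osteocyte genes passed either (1 at an unadjusted p under 0.05). Of these, Sost, the gene of the Wnt antagonist sclerostin, had a log2 change of 0.57 ± 0.173 (SE, adjusted p = 0.148 by edgeR).

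**Figure D3:**
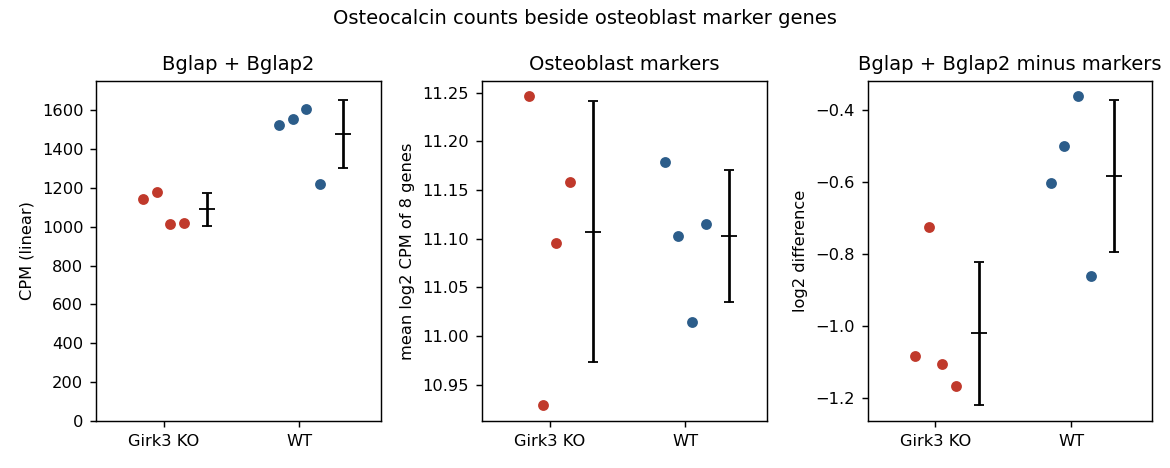
Summed Bglap and Bglap2 CPM (left, linear axis from 0), mean log2 CPM of 8 osteoblast marker genes (middle) and the log2 sum minus that mean (right), by library, Girk3 KO left of WT, with mean and SD (n = 4 each). The sum separates the groups, the marker mean does not (11.11 in KO and 11.10 in WT), and in the right panel KO replicate 2 lies above WT replicate 4.

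Among 13 genes of factors known to act on the osteocalcin promoter, 1 fell and none rose, where 0.874% of all tested genes were called lower and 0.445% higher. An unadjusted p under 0.05 was reached by 5 of the 13, against 17.4% of all tested genes. Jund, an AP-1 subunit, was at 74.9 ± 13.7 CPM in KO and 121 ± 11.9 CPM in WT (SD, n = 4 each) and its log2 change was -0.69 ± 0.119 (SE, adjusted p = 0.0204 by edgeR). Its call was lost without KO replicate 2, KO replicate 3 or WT replicate 2, with adjusted p up to 0.0718, and without the 3 libraries low in muscle RNA (adjusted p = 0.337). The list is a selection, made with earlier results of these data known, and leaves out the AP-1 genes Jun and Fos. Both were called lower in KO (log2 changes -1.04 and -1.43, adjusted p = 0.00064 and 0.00358 by edgeR). Runx2, the master regulator of the osteoblast lineage, was at a log2 change of 0.10, Sp7 of 0.12 and Atf4 of -0.04. Msx2, a homeobox repressor of osteocalcin, stood at 0.26 ± 0.103, the AP-1 gene Fosl2 at -0.22 ± 0.0884, and Cbfb, the Runx partner, at -0.18 ± 0.0722 (log2 changes with SE, adjusted p = 0.216, 0.222 and 0.242 by edgeR). The vitamin D receptor gene Vdr had a log2 change of -0.11.

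Of 17 annotated genes within 100 kb of the cluster, 12 were tested, none passed (2 at an unadjusted p under 0.05), and their median log2 change was 0.02. Smg5, a factor of nonsense-mediated decay on the Bglap3 side, lay higher in every KO library, at 69.3 ± 2.94 CPM in KO and 59.2 ± 4.97 CPM in WT (SD, n = 4 each; log2 change 0.22 ± 0.0733 SE, adjusted p = 0.152 by edgeR). Cct3, a chaperonin subunit gene, lay lower in every KO library, at 143 ± 4.95 CPM in KO and 155 ± 3.55 CPM in WT (SD, n = 4 each). Sema4a and Tsacc had log2 changes of -0.37 and 0.37 (adjusted p = 0.282 and 0.316 by edgeR). Pmf1, the nearest gene on the Bglap side, had one of 0.03.

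Mgp (ENSMUSG00000030218, chr6:136872435-136875823, minus strand), the calcification inhibitor, had the smallest adjusted p of the 9 genes. It was at 200, 215, 217 and 218 CPM in KO replicates 1 to 4, against 271, 301, 287 and 260 CPM in WT replicates 1 to 4. The gap between the highest KO and the lowest WT library was wider than the range of the KO group. Mgp averaged 213 ± 8.62 CPM in KO and 280 ± 18.0 CPM in WT (SD, n = 4 each), a fold of 0.759. It fell by 0.40 ± 0.0701 on the log2 scale (SE; 95% interval -0.55 to -0.24, adjusted p = 0.0204 by edgeR). The call was lost without KO replicates 1, 2 or 3 or WT replicates 2 or 3, with log2 changes from -0.43 to -0.36 and adjusted p from 0.0185 to 0.079 over the 8 left-out libraries. It was kept by limma-voom (adjusted p = 0.0257) and lost with library totals (log2 change -0.34, adjusted p = 0.0579).

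Cartilage, smooth muscle and pericyte genes, which mark some of the cell types known to make Mgp, did not pass the test. Of 12 cartilage genes, 11 were tested and none passed (2 at an unadjusted p under 0.05, median log2 change 0.03). Among them the link protein gene Hapln1 stood at a log2 change of 0.22 ± 0.0941 and the cartilage oligomeric matrix protein gene Comp at -0.44 ± 0.188 (SE, adjusted p = 0.261 and 0.266 by edgeR). None of 6 smooth muscle and pericyte genes passed (1 at an unadjusted p under 0.05, median log2 change -0.11), and 5 of the 6 had a log2 change below 0. Their summed level was nevertheless 493 to 597 CPM in KO libraries, below the 603 to 691 CPM in WT libraries. Rgs5, a pericyte marker in that sum, was at 243 ± 28.5 CPM in KO and 302 ± 27.7 CPM in WT (SD, n = 4 each; adjusted p = 0.131 by edgeR). The part of these cells in the Mgp difference was not tested.

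Of 9 macrophage genes, 3 fell (Lyz2, Cx3cr1 and Ctss), where 0.874% of all tested genes were called lower. All 9 had a log2 change below 0, as did 8886 of the 17743 tested genes. The 9 genes summed to 472 to 544 CPM in KO libraries and 606 to 782 CPM in WT libraries. This list was chosen with earlier results of these data known, so its counts are a description and not a test. The call of Ctss was lost without KO replicate 2 (adjusted p = 0.0559 by edgeR), and those of Ctss and Cx3cr1 without the 3 libraries low in muscle RNA (adjusted p = 0.309 and 0.0981). Of 6 osteoclast genes none passed by edgeR, and 6 had an unadjusted p under 0.05, against 17.4% of all tested genes. All 6 had a log2 change below 0. Their sums overlapped, at 3936 to 5990 CPM in KO libraries and 5645 to 8370 CPM in WT libraries. The 5 endothelial genes were all detected, none was called, and all 5 had a log2 change below 0. Their sums were 444 to 565 CPM in KO libraries and 481 to 573 CPM in WT libraries. The part of these cell types in the osteocalcin and Mgp differences was not tested. With the skeletal muscle mean as a covariate, the sum of Bglap and Bglap2 kept a log2 change of -0.44 (adjusted p = 0.0408 by edgeR, where 1.79% of genes were called). Without the 3 libraries low in muscle RNA, which left 2 KO and 3 WT libraries and 8 called genes, the log2 changes were -0.46 for Bglap, -0.40 for the sum and -0.40 for Mgp (adjusted p = 0.432, 0.478 and 0.397 by edgeR).

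Ucma (ENSMUSG00000026668, chr2:4976122-4985748, plus strand), a Gla-rich protein of cartilage, was scarcely detected. It held 2, 9, 10 and 10 counts in KO replicates 1 to 4, against 28, 9, 0 and 12 counts in WT replicates 1 to 4. The groups overlapped and WT held both the highest and the lowest library. Its log2 change was -0.66 ± 0.804 (SE, adjusted p = 0.718 by edgeR), which did not pass, and the sign turned without WT replicate 1 (0.14).

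Gas6 (ENSMUSG00000031451, chr8:13465374-13494490, minus strand), the TAM ligand named for growth arrest, was at 148, 153, 130 and 165 CPM in KO replicates 1 to 4, against 151, 163, 159 and 176 CPM in WT replicates 1 to 4. The groups overlapped, and the log2 change was -0.12 ± 0.083 (SE; 95% interval -0.30 to 0.06, adjusted p = 0.476 by edgeR). Tmem255b on the opposite strand covers 1.33% of its exon bases.

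Pros1 (ENSMUSG00000022912, chr16:62854307-62929346, plus strand), the gene of protein S, also an anticoagulant cofactor, was at 138, 133, 143 and 136 CPM in KO replicates 1 to 4, against 149, 147, 179 and 156 CPM in WT replicates 1 to 4. No KO library reached a WT library, and WT replicate 3 was the highest. The log2 change was -0.20 ± 0.0752 (SE; 95% interval -0.36 to -0.03) and did not pass over all genes (adjusted p = 0.204 by edgeR). Their receptor genes did not pass either (1 of 3 at an unadjusted p under 0.05). Mertk had a log2 change of 0.17 ± 0.0675 (SE, adjusted p = 0.23 by edgeR), Tyro3 of -0.11 and Axl of -0.0039.

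Ggcx (ENSMUSG00000053460, chr6:72414308-72430712, plus strand), the gamma-carboxylase, was at 78.4, 78.5, 81.5 and 61.6 CPM in KO replicates 1 to 4, against 67.3, 65.1, 61.3 and 67.0 CPM in WT replicates 1 to 4. KO replicates 1 to 3 were above every WT library, and KO replicate 4 lay among them. The log2 change was 0.20 ± 0.0872 (SE; 95% interval 0.01 to 0.39), and the adjusted p was 0.258 by edgeR. Without KO replicate 4 the log2 change was 0.29 and the gene passed (adjusted p = 0.0293), in a comparison that called 608 genes in place of 234.

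Vkorc1 (ENSMUSG00000096145, chr7:127893063-127895617, minus strand), the vitamin K epoxide reductase, was at 110, 100, 111 and 130 CPM in KO replicates 1 to 4, against 134, 131, 106 and 108 CPM in WT replicates 1 to 4. The groups overlapped across nearly their whole range. The log2 change was -0.09 ± 0.101 (SE; 95% interval -0.31 to 0.13, adjusted p = 0.688 by edgeR). The gene model Gm21974 covers 47.7% of its exon bases on the same strand and held at most 2 counts in any library, so the counts of Vkorc1 are uncertain.

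The rest of the vitamin K cycle did not pass. In a list of 7 such genes, which includes Ggcx and Vkorc1, none rose or fell (1 at an unadjusted p under 0.05, median log2 change 0.04). Calu, calumenin, an inhibitor of the carboxylase, was at 1044 ± 61.4 CPM in KO and 964 ± 22.6 CPM in WT (SD, n = 4 each; adjusted p = 0.42 by edgeR), and the quinone reductase gene Nqo1 at 3.12 ± 0.634 CPM in KO and 2.85 ± 0.0794 CPM in WT (adjusted p = 0.728). Of 10 other Gla protein genes, 7 were tested and none passed (0 at an unadjusted p under 0.05). Of these, the coagulation genes Proz, F7 and F10 were at 0.163, 0.469 and 0.452 CPM in KO and 0.271, 0.601 and 0.483 CPM in WT, and the transmembrane Gla gene Prrg4 at 0.756 CPM in KO and 0.675 CPM in WT. Genes that process or sense osteocalcin were Furin, the convertase gene, with a log2 change of 0.05, and Ptprv, an osteoblast phosphatase gene, with one of 0.22 ± 0.0838 (SE, adjusted p = 0.204 by edgeR). The osteocalcin receptor genes failed the filter. Gprc6a had 0 counts in all 8 libraries and Gpr158 at most 7.

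**Figure D4:**
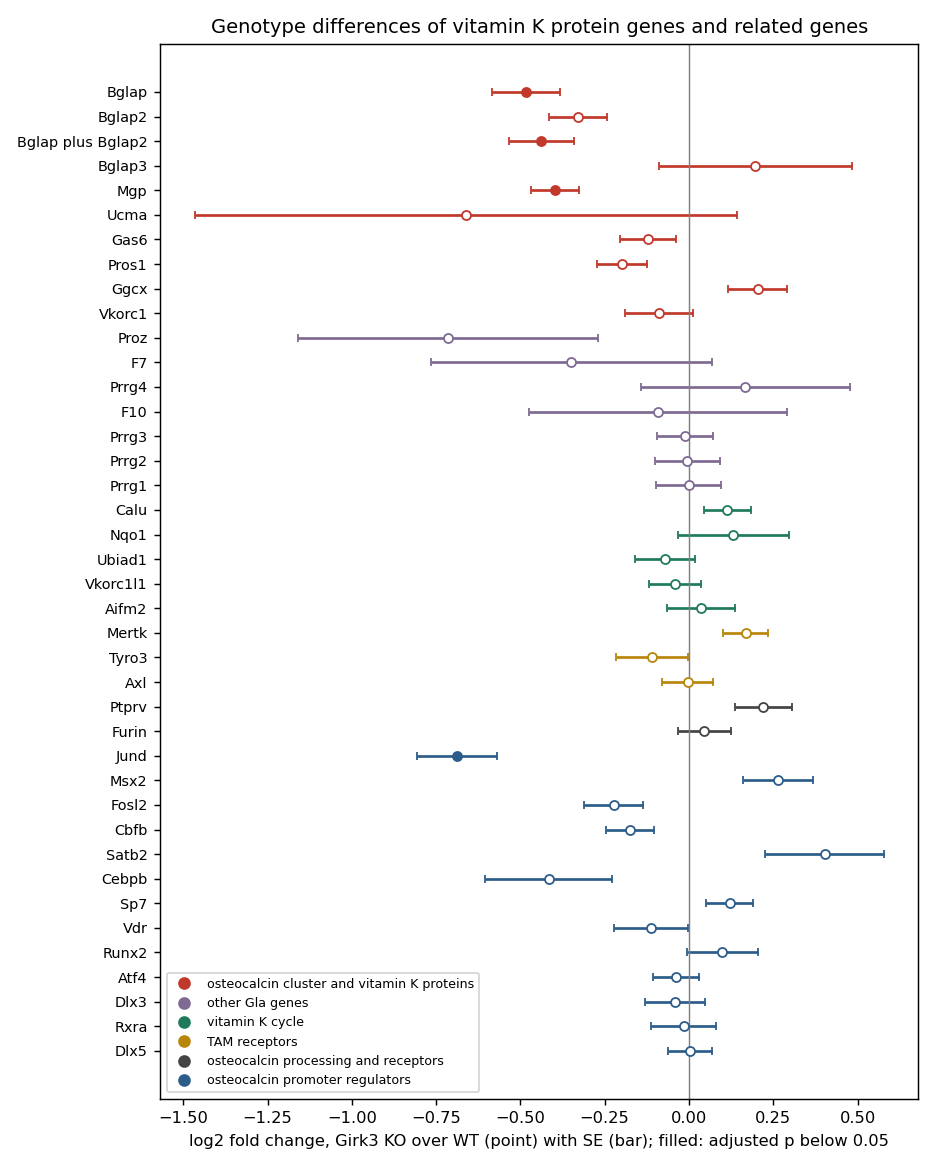
Log2 fold change (Girk3 KO over WT) with SE derived from the edgeR test for the 9 genes, the osteocalcin sum, and tested genes of related lists, each gene drawn once. Filled points passed an adjusted p under 0.05: Bglap, the sum, Mgp and Jund, all lower in KO.

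Levels of different genes were compared as CPM per kb of merged exons. In KO libraries the order was Bglap at 1241 ± 119, Bglap2 at 686 ± 27.9, Mgp at 179 ± 7.26, Vkorc1 at 134 ± 14.7, Gas6 at 58.5 ± 5.76, Pros1 at 33.6 ± 0.993, Ggcx at 23.1 ± 2.79, Bglap3 at 0.521 ± 0.0851 and Ucma at 0.198 ± 0.112 CPM per kb (SD, n = 4). WT libraries had the same order, from 1734 ± 210 CPM per kb for Bglap and 861 ± 95.2 for Bglap2 down to 0.455 ± 0.201 for Bglap3 and 0.310 ± 0.296 for Ucma (SD, n = 4). Neighbours in the order did not overlap over libraries, except Bglap3 and Ucma in WT. The place of Vkorc1 after Mgp is uncertain, since its level was taken over all its exon bases, including those shared with Gm21974. Levels and order of the osteocalcin copies are uncertain too, since how reads that match several copies were counted is not known. The exon length matters for the osteocalcin genes, since over the 440 bases of its main transcript Bglap was at 1743 CPM per kb in KO and 2436 in WT, and Bglap3 over 717 bases at 1.91 in KO and 1.67 in WT.

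Within the groups, the osteocalcin copies varied together. After group means were subtracted, log2 CPM of Bglap and Bglap2 had a Pearson r of 0.92 over the 8 libraries, described without a test, as reads that match both copies may enter either value. For Bglap and Mgp it was 0.36, and for Ggcx and Gas6 it was -0.61. Among 9628 candidate genes with a mean of at least 10 CPM, those most like the osteocalcin sum in this measure were Timm21 (0.97), Ctso (0.95), Mrps22 (0.94), Stard3nl, Polr2m and Srgn (each 0.92). Of these Srgn, the proteoglycan core gene of blood cell granules, was called lower in KO (log2 change -0.75, adjusted p = 0.00358 by edgeR). Those most like Mgp were Fam76a (0.98), Wdsub1 and Gpn3 (each 0.96), and Rpf1, Tsc22d3 and Scoc (each 0.95), of which none was called. All these values rest on the same 8 libraries and share their scaling. The most alike genes were picked as the highest r among all candidates, where high values can arise by chance, and were not tested.

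**Figure D5:**
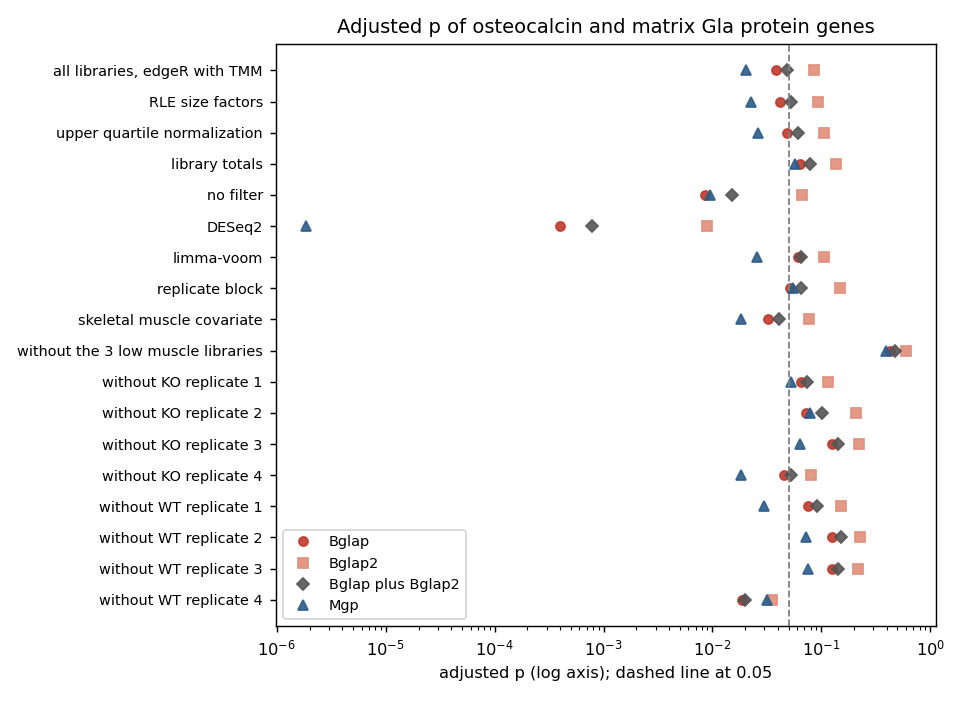
Adjusted p (log axis, dashed line at 0.05) of Bglap, Bglap2, their sum and Mgp with all libraries, under other normalizations, tools and terms, and without single libraries. Bglap, the sum and Mgp pass with all libraries and by DESeq2, and none of the 4 passes without the 3 libraries low in muscle RNA.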

How the data were processed

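The authors deposited raw read counts per Ensembl gene ID for 8 calvaria libraries, 4 KO and 4 WT, grouped by their titles. Per the labels' protocols, Trizol-extracted total RNA went into NEBNext Ultra II libraries. The submitters' processing notes name bcl2fastq 2.17, STAR 2.5.2b, featureCounts, Subread 1.5.2 and build mm10. For the annotation release, strand setting and multimapping reads, the treatment is not given in the sources used here.

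Genes were kept with edgeR's filterByExpr (minimum count 10, minimum total 15), which left 17743 genes with 99.9% of counts, scaled by TMM factors of 0.972 to 1.04. In edgeR 4.0.16 (R 4.3.3), KO was compared with WT by a two-sided, robust quasi-likelihood test, adjusted after Benjamini-Hochberg over all tested genes at a threshold of 0.05 and checked on simulated counts. The SE was derived as the absolute log2 change over the square root of the F statistic of that test. The 95% intervals of log2 changes were built from this SE and the t distribution. For the sum, the Bglap and Bglap2 counts were added and the whole table refitted. Log2 CPM used a prior count of 2. Single values were compared by two-sided exact permutation tests over libraries. Alternatives used other normalizations, no filter, DESeq2 1.42.0, limma-voom (limma 3.58.1), a muscle covariate, the replicate number as a block, and left-out libraries. Annotation came from GENCODE mouse release 21 (GRCm38), promoters from RefSeq. Figures used matplotlib 3.10.9.

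The 9 genes and all lists were chosen with earlier results of these data known. All 9 were named whatever their values. In each described list, called genes and up to 4 of smallest p were named, with Runx2, Sp7, Atf4, Vdr, Furin, Tyro3, Axl and Pmf1 added after their values were seen, and 6 genes each most correlated with the osteocalcin sum and with Mgp. Jun and Fos, from outside the lists, were also added after their values were seen.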

Additional observations from a re-analysis of the deposited data

Results flagged for a closer look

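A library stood far from the other 3 of its genotype in 6 of 58 quantities by genotype. Chance alone does so in about 1 in 20 groups, here 2.9. Mgp was at 199.8 CPM in KO replicate 1, against 215 to 218 CPM in the other KO libraries. Ggcx was at 61.6 CPM in KO replicate 4, against 78.4 to 81.5 CPM in the other KO libraries. The macrophage genes summed to 544 CPM in KO replicate 4, against 472 to 482 CPM in the others. In WT replicate 1, the liver genes summed to 2.81 CPM, against 0.104 to 0.481 CPM in the other WT libraries, and the neural genes to 44.2 CPM, against 21.7 to 24.1 CPM. The genes beside the osteocalcin cluster summed to 801 CPM in WT replicate 3, against 893 to 902 CPM in the other WT libraries.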

How the results depend on the processing

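The osteocalcin sum, at a log2 change of -0.44, kept its direction under every alternative run but lost its call at -0.43 with RLE size factors (adjusted p = 0.0528), -0.42 with upper quartile scaling (0.0604), -0.39 with library totals (0.0783), -0.435 by limma-voom (0.0654), -0.43 with the replicate number as a block (0.0646) and -0.40 without the 3 libraries low in muscle RNA (0.478). Left-out single libraries gave -0.52 to -0.39. Of the 9 genes, 2 were called with all libraries, 1 by limma-voom, and 0 with library totals, with the replicate block or without the 3 low-muscle libraries (5 at an unadjusted p under 0.05 with all libraries), and 0 to 3 without single libraries. Over all genes, 234 calls became 355 without the filter, 952 by DESeq2, 126 with the block, 8 without the low-muscle libraries and 57 to 608 without single libraries. With library totals, which moved the median of all genes by 0.053, 46.7% of calls were lower, against 66.2%. The Bglap share difference of -2.23 points was -2.23 with the block (exact p = 0.125), -2.85 without the low-muscle libraries (0.1) and -2.82 to -1.74 without single libraries. The exact p of 0.125 and 0.1 are the smallest that those tests allow, so neither could pass. Ucma turned to 0.11 by limma-voom and ran from -1.06 to 0.14 without single libraries, positive without WT replicate 1, and Bglap3 to -0.045 without the low-muscle libraries. The difference from osteoblast markers did not pass in any alternative. With the block or without the low-muscle libraries it could not pass whatever its values. Same-numbered libraries did not deviate together (r = 0.26, -0.18, 0.34 and -0.005 for replicates 1 to 4), so the numbers are not taken to pair samples. The causes of these changes were not tested, including the smaller number of samples where libraries were left out. Jund lost its call with the block (adjusted p = 0.0628). Ucma, with 0 to 28 counts a library, and Bglap3, with 36 to 84, rest on few counts.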
